A study of Astyanax mexicanus with 12 samples.

Results

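The liver transcriptome of Tinaja cavefish larvae was compared between 7 and 5 days post-fertilization (dpf). The comparison rests on 6 of the 12 libraries of the series, 3 at 7 dpf and 3 at 5 dpf, chosen by the population and age in the sample titles. Tinaja is a blind cave population of the Mexican tetra, *Astyanax mexicanus*, whose river-dwelling form is called surface fish. The 7 dpf larvae had been fasted until that age, whereas the 5 dpf larvae stand for the fed state in the series, so that age and feeding cannot be told apart here. The other 6 libraries are from surface fish under the same conditions, again 3 at 7 dpf and 3 at 5 dpf. No transgene or drug is named for any group. The study states that cavefish carry an insulin receptor mutation of reduced function, but gives no genotype for these libraries. In both populations embryos of several parent tanks had been mixed before larvae were chosen. Each library is a pool of livers from 40 larvae. The p-values therefore cover only differences among pools, some of which can be technical, and in such bulk RNA fewer cells of a type and less RNA per cell cannot be told apart.

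In a fasting vertebrate the liver turns from storing nutrients to releasing them. It breaks down glycogen, makes glucose from amino acids and glycerol, and takes up fatty acids that adipose tissue releases, to burn them or to store them as lipid droplets. In fish larvae the change falls together with the loss of the yolk. Cave populations live where food is scarce, and their larvae survive without food for longer than those of surface fish. The liver also makes most plasma proteins, so a small number of its genes holds a large share of its messenger RNA.

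The count table gives Ensembl gene identifiers without names, and none of them matched the name table used here. The comparison is therefore described by how many genes changed, in which libraries, at which abundance and with what counterpart in surface fish, and the defining markers of liver could not be checked. Levels are given as CPM, the depth-scaled read counts of edgeR, with library sizes scaled by the trimmed mean of M values (TMM), a factor that sets most genes to an unchanged level.

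By depth, alignment and scaling factor the 6 Tinaja libraries did not form clean groups by age. The 7 dpf replicates 1, 2 and 3 held 21.4, 13.9 and 12.2 M reads in genes, and the 5 dpf replicates held 20.8, 20.04 and 13.5 M. Reads that could not be aligned made up 4.57%, 7.36% and 7.74% of the reads at 7 dpf, and 4.70%, 4.80% and 7.05% at 5 dpf. Replicate 1 of 7 dpf thus shared a high depth and a low share of unaligned reads with replicates 1 and 2 of 5 dpf, while replicates 2 and 3 of 7 dpf stood with replicate 3 of 5 dpf. The TMM factor was 0.683 in replicate 1 of 7 dpf, the lowest of all 12 libraries, and 1.07 in both replicates 2 and 3, against 0.931, 0.866 and 1.24 at 5 dpf. In none of these measures did the ages separate. The share of unaligned reads was 6.55% ± 1.73 at 7 dpf and 5.52% ± 1.33 at 5 dpf (SD, n = 3 each; exact two-sided permutation p = 0.4), and the share of reads outside genes was 25.4% ± 2.14 and 24.0% ± 5.26 (exact permutation p = 0.7). A permutation test of 3 against 3 libraries cannot give a p below 0.1. In surface fish the same split followed age, since all 7 dpf libraries lay under 6% unaligned reads and all 5 dpf libraries above it. There this difference between kinds of library and age cannot be told apart.

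**Figure D1:**
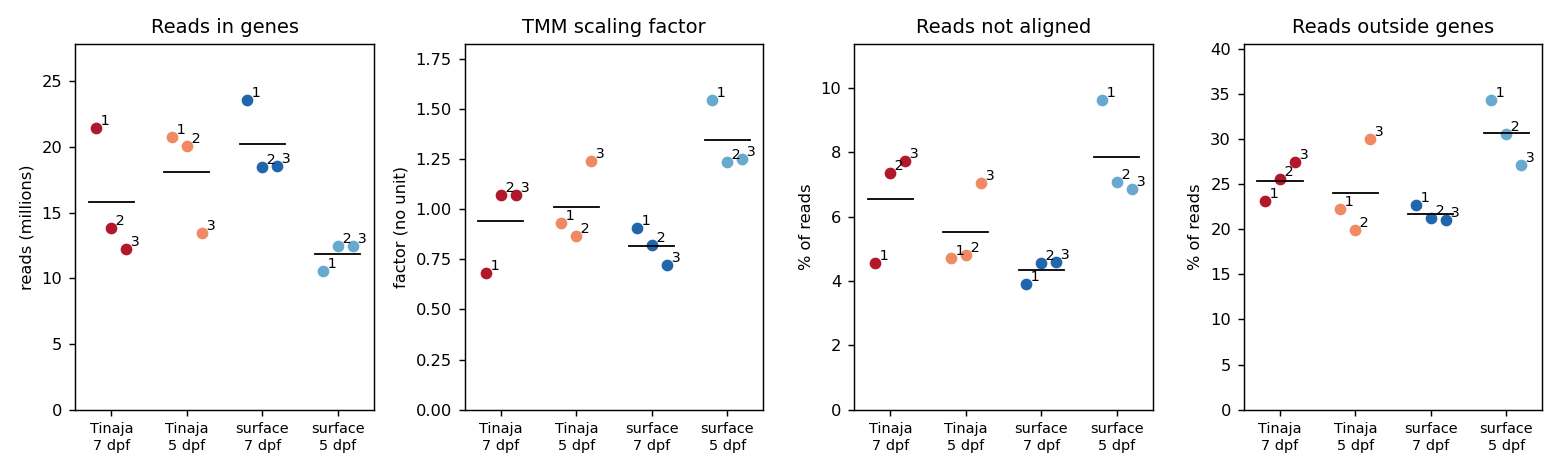
Reads counted in genes (M), TMM scaling factor (no unit), and reads not aligned or aligned outside genes (% of all reads) in each of the 12 libraries. Points are libraries with their replicate number and lines are group means; among Tinaja 7 dpf libraries, replicate 1 has the deepest count (21.4 M), the lowest factor (0.683) and the lowest unaligned share (4.57%).

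The expression values placed the libraries both by age and by their share of unaligned reads. On the first principal component of the 6 Tinaja libraries, with 40.9% of the variance of log2 CPM, the 7 dpf replicates lay at -79.1, -17.9 and -53.2 and the 5 dpf replicates at 39.6, 83.0 and 27.6, so this component separated the ages. The second, with 31.6%, placed the 7 dpf replicates at 80.9, -38.7 and -56.3 and the 5 dpf replicates at 13.7, 39.0 and -38.7. Its positive side held the 3 libraries with fewer unaligned reads and its negative side the other 3. Across 17540 genes, which are not independent replicates, replicate 1 of 7 dpf correlated at 0.930 and 0.926 with replicates 2 and 3, which correlated at 0.962 with each other. Replicate 2 of 7 dpf and replicate 3 of 5 dpf, of different ages, correlated at 0.956.

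Replicate 1 was also checked for transcripts of surface fish. In each Tinaja library 4 genes could be tested that had at least 5 CPM in all 6 surface libraries and under 0.1 CPM in the other 5 Tinaja libraries. Their levels summed to 49.8 CPM on average in the surface libraries, with a range of 29.2 to 56.7 CPM. Replicate 1 of 7 dpf held 0 reads of these genes, which by 3 counts allows up to 0.205 CPM, and the other 5 Tinaja libraries held 0 reads as well. With looser limits of 2 and 0.2 CPM the sum was 0.274 CPM in replicate 1 and 0 to 0.404 CPM in the others. By these genes replicate 1 could not be told from the other Tinaja libraries. The mirrored check took genes at 2 CPM or more in the other 5 Tinaja libraries and under 0.2 CPM in all surface libraries. Their median level against those 5 was 54.3%, 111% and 142% in 7 dpf replicates 1, 2 and 3 (17, 15 and 14 genes). At 5 dpf it was 82.6%, 45.3% and 86.2% (14, 16 and 14 genes). Replicate 1 of 7 dpf was thus low here, as was replicate 2 of 5 dpf, and the cause was not tested.

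Between 7 and 5 dpf 1223 of 17540 tested genes changed in Tinaja liver at an adjusted p under 0.1 (6.97%; edgeR quasi-likelihood test with Benjamini-Hochberg adjustment). Of these, 395 rose (2.25% of tested genes) and 828 fell (4.72%). With at least a 2-fold change, 294 rose (1.68%) and 725 fell (4.13%). Falls thus outnumbered rises, and 32.3% of the changed genes rose. On library totals, without TMM factors, the share that rose was 20.2% of 1276 genes. On that scale the median of all genes in replicate 1 of 7 dpf lay at -0.57 (log2) against the 5 dpf mean, and at -0.06 with TMM, while the medians of replicates 2 and 3 were 0.11 and 0.14 on library totals and 0.01 and 0.05 with TMM. The number of changed genes rested on single libraries. It was 204 without replicate 2 of 5 dpf, 368 without replicate 1 of 7 dpf, 440 without replicate 3 of 7 dpf, 494 without replicate 1 of 5 dpf and 739 without surface 5 dpf replicate 2.

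Rises and falls lay at different levels of abundance. Among 1637 genes with a mean log2 CPM of 6 to 9 over the Tinaja libraries, 4.83% rose and 3.79% fell, and among the 265 genes above 9 it was 5.28% and 1.51%. Among 6267 genes at 0 to 3, 1.31% rose and 5.44% fell. Above 9 these shares stand for 14 rising and 4 falling genes. On the TMM scale falls were thus the more frequent at low abundance, and rises the more frequent at high abundance. On library totals 258 genes rose and 1018 fell, and these were not split by abundance.

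To see which changes were present in every pool, each 7 dpf library was set against the mean of the 5 dpf libraries. A gene was counted as changed in all 3 libraries when each differed by at least 1 on the log2 scale in the same direction and the groups did not overlap. It was counted under a single replicate when only that replicate differed by at least 1 and the other two stayed within 1. These classes use the values that the test used, so their counts describe the calls and are no further test. Of the 1223 changed genes, 631 (51.6%) were changed in all 3 libraries, 135 upward and 496 downward. Another 92 rose and 38 fell by at least 2-fold in replicate 1 alone. The 92 had median differences from 5 dpf of 1.46, 0.66 and 0.77 (log2) in replicates 1, 2 and 3. For the 38 these were -1.41, -0.78 and -0.82. At the median of these called genes, replicates 2 and 3 thus moved the same way as replicate 1 but stayed under the 2-fold limit. The call itself favours genes for which this holds. Over all tested genes of these classes, called or not, the medians were 1.31, 0.19 and 0.34 for 1249 rising genes. For 1397 falling genes they were -1.39, -0.14 and -0.06. A further 85 passed 2-fold in replicate 2 or 3 alone, and 377 belonged to no class, for example since 2 of the 3 libraries passed 2-fold. The 7 and 5 dpf libraries did not overlap for 1198 of the changed genes. Left-out libraries moved these counts. Where a Tinaja 7 dpf library was left out, the class asked for only the remaining 7 dpf libraries, a looser rule. The 135 became 26 and 64 without replicates 2 of 5 dpf and 1 of 7 dpf, 83 without replicate 1 of 5 dpf, and 203 and 213 without replicates 3 of 5 dpf and 2 of 7 dpf. The 496 became 156 without replicate 2 of 5 dpf and 251 and 255 without replicates 3 and 1 of 7 dpf. The 92 and 38 became 0 and 2 without replicate 2 of 5 dpf, 5 and 2 without its replicate 1, and 29 to 78 and 8 to 32 without the other libraries outside Tinaja 7 dpf. Over all tested genes, changed or not, 10.1% lay higher in every 7 dpf than in every 5 dpf library and 12.4% lay lower.

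**Figure D2:**
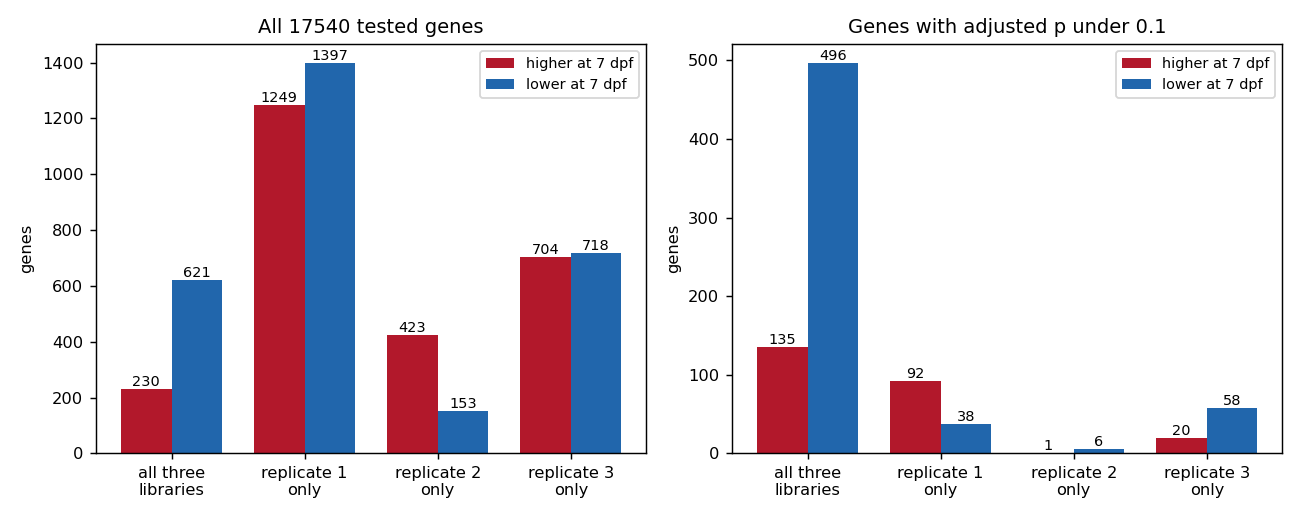
Number of genes higher or lower at 7 dpf in all 3 Tinaja libraries or in a single replicate by at least 2-fold, over all 17540 tested genes (left) and over genes with adjusted p under 0.1 (right). Replicate 1 has the most single-library differences (1249 higher, 1397 lower), but 631 of the 1223 changed genes are those of all 3 libraries.

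The changes seen in all 3 libraries were large, in part since the class asked for at least 2-fold in each library. Their median log2 fold change was 2.08 for the 135 genes that rose and -2.05 for the 496 that fell. Over all called genes, of any class, the median was 1.37 for those that rose and -1.63 for those that fell. At least a 4-fold change was reached by 70 rising and 265 falling genes, and an 8-fold change by 19 and 74. Among the rising genes the median difference from 5 dpf was 2.39, 1.48 and 1.73 (log2) in replicates 1, 2 and 3 of 7 dpf, and among the falling genes it was -2.16, -1.48 and -2.34. Replicate 1 had the largest rises and replicate 3 the largest falls, while replicate 2 changed least in both directions. Some genes crossed the limit of 1 CPM. Of the rising genes, 15 had under 1 CPM in every 5 dpf library and at least 1 CPM in every 7 dpf library, and 46 of the falling genes did the reverse.

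The genes changed in all 3 libraries took up a visible part of the library. The 135 rising genes held 4.72%, 2.78% and 3.19% of the counts in the 7 dpf libraries, against 1.05%, 0.723% and 1.04% in the 5 dpf libraries. The 496 falling genes held 0.848%, 1.91% and 1.43% of the counts at 7 dpf, against 5.72%, 9.81% and 4.22% at 5 dpf. For neither set did the ages overlap, which the choice of genes had fixed. The levels of surface fish were not used in the class limits, but all 12 libraries entered the fit that made the calls, and without surface 5 dpf replicate 2 the numbers of genes were 112 and 422. In surface fish the 135 genes held 5.30% ± 0.81 of all counts in the 7 dpf and 1.05% ± 0.194 in the 5 dpf libraries (SD, n = 3 each). The 496 genes held 1.02% ± 0.0886 at 7 dpf and 3.66% ± 0.148 at 5 dpf in surface fish. At 5 dpf the 496 genes thus held less in every surface library than in any Tinaja library. The choice of genes favoured high levels in the Tinaja 5 dpf libraries only, so this order of the populations is a description.

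Genes with the widest gap between the ages are given with the value of every library. ENSAMXG00000034409 was at 147, 115 and 149 CPM in the 7 dpf libraries, against 7.24, 5.42 and 6.11 CPM in the 5 dpf libraries. It rose by 4.45 on the log2 scale (SE 0.31, edgeR adjusted p = 0.000118), and replicates of an age lay close together. In surface fish it stood at 109, 210 and 203 CPM at 7 dpf and at 46.0, 61.0 and 61.8 CPM at 5 dpf, so the populations were apart at 5 dpf and overlapped at 7 dpf. ENSAMXG00000011856 was at 44.0, 40.4 and 83.8 CPM at 7 dpf, against 5.90, 0.750 and 9.64 CPM at 5 dpf. Its rise was 3.37 on that scale (SE 0.70, edgeR adjusted p = 0.0306), a call that ended when only the 6 Tinaja libraries were fitted (adjusted p = 0.107, the highest over its alternatives, which reached down to 2.01e-05).

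The falling genes varied between the pools of an age. ENSAMXG00000021162 was at 0.752, 3.98 and 4.66 CPM at 7 dpf, against 224, 1246 and 78.0 CPM at 5 dpf. Its log2 change was -7.37 (SE 1.11, edgeR adjusted p = 0.0203), and the 5 dpf libraries were all far above those of 7 dpf, although they were widely spread among themselves. Without replicate 2 of 5 dpf, which held the highest value, the log2 fold change was -5.60 (edgeR adjusted p = 0.0400). The highest adjusted p over its alternatives was 0.0895, in the edgeR fit of only the 6 Tinaja libraries. ENSAMXG00000033230 was at 7.11, 19.2 and 3.06 CPM at 7 dpf, against 152, 464 and 191 CPM at 5 dpf (log2 fold change -4.78, SE 0.89, edgeR adjusted p = 0.0242). Its highest adjusted p was 0.0976, in the edgeR fit without replicate 1 of 7 dpf, which the choice of genes required it to pass. In surface fish these genes lay at 0.482 ± 0.138 and 4.57 ± 1.005 CPM at 7 dpf, against 53.8 ± 22.3 and 41.7 ± 35.3 CPM at 5 dpf (SD, n = 3 each). For both genes every 7 dpf library lay below every 5 dpf library in both populations.

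**Figure D3:**
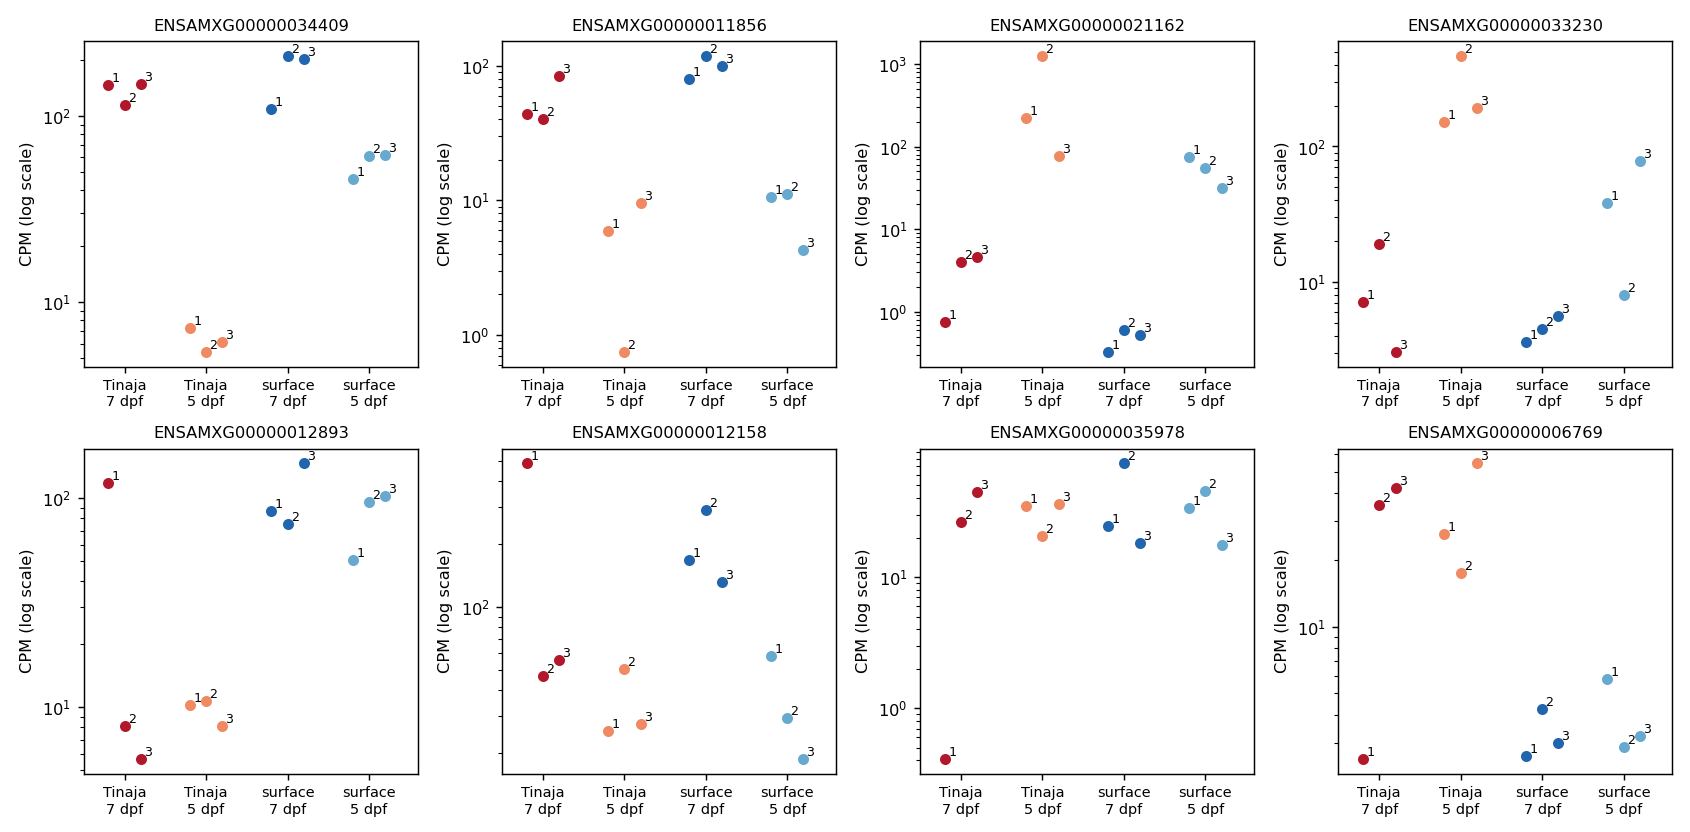
Level (CPM, log axis) in each of the 12 libraries, with replicate numbers, of the genes given by identifier. In the upper row the 3 Tinaja 7 dpf libraries lie apart from the 3 Tinaja 5 dpf libraries. In the lower row, among the Tinaja libraries, only replicate 1 of 7 dpf departs. It held 118 CPM of ENSAMXG00000012893, for example, against 8.16 and 5.65 CPM in replicates 2 and 3.

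The libraries of 7 dpf were then compared among themselves. Replicate 1 differed from replicates 2 and 3 at 330 genes (1.88% of tested genes; edgeR, adjusted p under 0.1), with 233 higher and 97 lower, and at 3447 genes at an unadjusted p under 0.05. The same fit for replicate 2 and for replicate 3 gave 0 genes each in edgeR and in limma-voom, with 523 and 682 at an unadjusted p under 0.05 in edgeR. Among the 5 dpf libraries the counts were 7, 1 and 0, with 345, 903 and 1028 at an unadjusted p under 0.05. These fits compare a library with others of its group, not conditions, and assume that the lone library varies as the groups do. In the fits for replicates 2 and 3 of 7 dpf, replicate 1 stayed in the pair that gives the spread, which raises it. In the fit for replicate 1 that pair was replicates 2 and 3, which correlated best among the 7 dpf libraries. The counts of these fits are therefore not on a like footing. Replicate 1 had the largest count of genes, but this count was not stable. It was 17 on library totals, 23 in a fit of only the 6 Tinaja libraries, and 84 to 873 when single libraries of the other groups were left out. The lowest of these was found without surface 5 dpf replicate 2 and the highest without Tinaja 5 dpf replicate 3, and it was 134 without Tinaja 5 dpf replicate 1, 161 and 667 without surface 5 dpf replicates 3 and 1, and 176 without surface 7 dpf replicate 3.

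Set alone against the 5 dpf libraries, replicate 1 would have called 1915 genes, 1109 upward (6.32%) and 806 downward (4.60%). Replicate 3 would have called 191, with 47 upward (0.268%) and 144 downward (0.821%), and replicate 2 would have called 1 gene, which rose (0.0057%). At an unadjusted p under 0.05 the counts were 3998, 2606 and 1261 for replicates 1, 3 and 2. These fits share the 5 dpf libraries. In a fit of only the 6 Tinaja libraries the counts were 823, 0 and 0 for replicates 1, 2 and 3, and in limma-voom they were 1406, 1 and 22. At an adjusted p under 0.05 they were 900, 1 and 17. The 1915 became 1185 without Tinaja 5 dpf replicate 1 and 1210 without surface 5 dpf replicate 2. The 191 became 31 and 104 without surface 5 dpf replicates 2 and 3, 73 and 121 without Tinaja 5 dpf replicates 2 and 1, and 1282 without its replicate 3. Differences of at least 2-fold from the 5 dpf mean, in either direction and without a test, were found for 5003 genes in replicate 1, 2580 in replicate 2 and 3784 in replicate 3.

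The genes of replicate 1 alone were more numerous than those of the other replicates before any test. Over all tested genes, 1249 were at least 2-fold higher and 1397 at least 2-fold lower in replicate 1 only. For replicate 2 the numbers were 423 and 153, and for replicate 3 they were 704 and 718. The direction in replicate 1 depended on the scaling: on library totals 305 genes were higher and 3196 lower in replicate 1 only. Nearly all of these 305, namely 301, were also among the 1249, and 1348 of the 3196 were among the 1397. Most such genes did not pass the test, which only 92 of the 1249 and 38 of the 1397 did. These shares, 7.37% and 2.72%, stand beside the 2.25% and 4.72% of all tested genes that rose and fell.

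**Figure D4:**
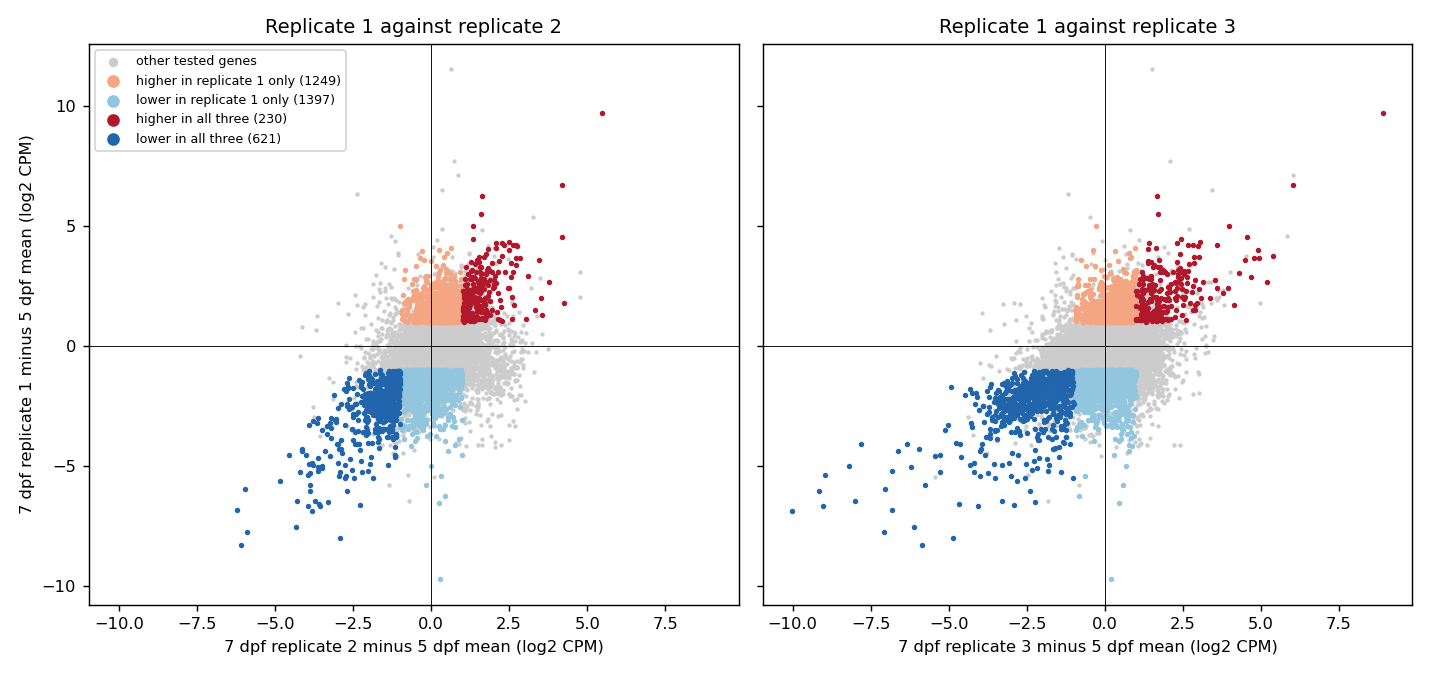
Difference of log2 CPM from the mean of the Tinaja 5 dpf libraries in 7 dpf replicate 1 (vertical) against replicate 2 (left) and replicate 3 (right), a point for each of 17540 genes. Genes of replicate 1 only (1249 higher, 1397 lower) form bands above and below the middle, whereas genes of all 3 libraries (230 higher, 621 lower) lie toward the corners.

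Genes higher in replicate 1 only tended to be abundant. Their median log2 CPM was 4.50, against 3.02 over all tested genes, and that of the genes lower in replicate 1 only was 1.57. Of the genes with a mean log2 CPM above 9, 48.7% were higher in replicate 1 only, and 3.94% of the genes under 0 were. Genes lower in replicate 1 only made up 0.377% of the genes above 9 and 13.5% of those under 0. Among the 100 most abundant genes 40 were higher in replicate 1 only and 3 in all 3 libraries, and their median difference from 5 dpf was 0.96, 0.06 and 0.04 (log2) in replicates 1, 2 and 3. On library totals 8 of the 100 were higher in replicate 1 only, and the median in replicate 1 was 0.41.

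As shares of the library, which need no scaling factor, the 1249 genes higher in replicate 1 only held 38.3% of the counts of replicate 1, and 26.3% and 28.9% in replicates 2 and 3. In the 5 dpf libraries they held 23.6%, 21.5% and 21.6%. The genes were chosen on the TMM scale, so which genes are summed does depend on the factor. They were also chosen against the same 5 dpf libraries, which fixes that replicate 1 was the highest. In surface fish these genes held 33.9% ± 1.28 of all counts in the 7 dpf and 22.4% ± 1.69 in the 5 dpf libraries (SD, n = 3 each). The 1397 genes lower in replicate 1 only held 0.556% of its counts and 2.01% and 2.24% in replicates 2 and 3, against 2.17%, 2.29% and 2.90% at 5 dpf. In surface fish they held 1.32% ± 0.527 at 7 dpf and 2.20% ± 0.418 at 5 dpf.

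By a rule on size, ENSAMXG00000012893 and ENSAMXG00000012158 were the genes most above replicates 2 and 3. ENSAMXG00000012893 was at 118, 8.16 and 5.65 CPM in replicates 1, 2 and 3 of 7 dpf, against 10.2, 10.7 and 8.14 CPM at 5 dpf. Replicate 1 alone departed, by a log2 difference of 4.09 from replicates 2 and 3 (SE 0.48, edgeR adjusted p = 0.0111). Surface fish held 103 ± 38.2 CPM at 7 dpf and 83.0 ± 28.2 CPM at 5 dpf (SD, n = 3 each), so replicate 1 was at their level at either age. ENSAMXG00000012158 was at 487, 47.0 and 55.9 CPM, against 25.5, 50.6 and 27.4 CPM at 5 dpf (log2 difference of replicate 1 from replicates 2 and 3 of 3.24, SE 0.64, edgeR adjusted p = 0.0626). It rose with age in surface fish, to 197 ± 83.7 CPM at 7 dpf, against 35.4 ± 20.4 CPM at 5 dpf (log2 fold change 2.48, edgeR adjusted p = 0.0594).

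The genes most below replicates 2 and 3 behaved differently in surface fish. ENSAMXG00000035978 was at 0.410, 26.5 and 44.6 CPM, against 34.8, 20.5 and 36.0 CPM at 5 dpf, with a log2 difference of -6.41 (SE 1.22, edgeR adjusted p = 0.0600). In surface fish it had 38.9 ± 30.3 CPM at 7 dpf and 32.2 ± 13.9 CPM at 5 dpf, far above replicate 1. ENSAMXG00000006769 was at 2.53, 35.3 and 42.3 CPM, against 26.2, 17.4 and 54.5 CPM at 5 dpf (log2 difference -3.94, SE 0.75, edgeR adjusted p = 0.0577). Surface fish held 3.28 ± 0.842 CPM of it at 7 dpf and 3.96 ± 1.61 CPM at 5 dpf, close to replicate 1. Of these 4 genes ENSAMXG00000012893 kept its call under every alternative tried. On library totals the differences of the other 3 genes were 2.59, -7.05 and -4.58 in the order given and did not pass (adjusted p = 0.119, 0.104 and 0.109), and ENSAMXG00000012158 also lost its call without surface 5 dpf replicate 2 (adjusted p = 0.106). The adjusted p of these genes ran from 0.0341 to 0.119, 0.0218 to 0.222 and 0.0231 to 0.135 over their alternatives.

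Without replicate 1 of 7 dpf, 368 of 17873 tested genes changed, 89 upward (0.498%) and 279 downward (1.56%). Of these, 339 were among the 1223 and had the same direction. The genes changed in all 3 libraries kept their call in 49 of 135 rising and 215 of 496 falling cases. Of the genes changed in replicate 1 only, 5 kept their call, 3 of the 92 rising and 2 of the 38 falling. The class of all 3 libraries had already fixed the direction of its genes in replicates 2 and 3.

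The age comparison in surface fish was then read by class. There 28.4% of all tested genes changed between 7 and 5 dpf, with 14.1% rising and 14.4% falling (edgeR, adjusted p under 0.1). Of the 135 genes rising in all 3 Tinaja libraries 88 (65.2%) rose in surface fish and 8 fell. Of the 496 falling genes 381 (76.8%) fell and 1 rose. These are 3.57% of the 2468 genes that rose and 15.1% of the 2521 that fell in surface fish. The median log2 fold change in surface fish was 1.71 for the rising and -1.87 for the falling genes, against -0.05 for all tested genes. Over all tested genes of these classes, called or not, 49.1% of 230 rose and 68.3% of 621 fell in surface fish, with medians of 1.20 and -1.84.

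In this fit the genes of replicate 1 only also leaned to the surface change, whereas genes higher in replicate 2 or 3 only did not. Of the 1249 genes higher in replicate 1 only, 615 (49.2%) rose in surface fish, close to the 49.1% of the tested genes higher in all 3 libraries. Among called genes the share was 80.4% of 92 for replicate 1 only, beside the 65.2% of 135 for all 3 libraries. The calls in both populations use a spread per gene that they share, so a gene with a small spread is more readily called in each. The choice of called genes can therefore raise these shares. Of the 423 and 704 genes higher in replicate 2 or 3 only, 3.55% and 7.53% did, less than the 14.1% of all genes. The median log2 fold change in surface fish was 0.94, -0.57 and -0.20 in these classes. Downward the shares that fell in surface fish were 28.3%, 22.2% and 11.7% for replicates 1, 2 and 3, beside 14.4% of all genes. No test was made of these shares, and the classes differ in abundance. Their median log2 CPM was 4.50, 0.09 and 2.05 for genes higher in replicates 1, 2 and 3 only. It was 2.80 for the tested genes higher in all 3 libraries. Without surface 5 dpf replicate 1, when 3062 and not 4989 genes changed in surface fish, the share for replicate 1 was 29.3% upward and 16.7% downward. It was 32.5% upward without surface 7 dpf replicate 3, and 18.02% downward without surface 5 dpf replicate 2. With both populations on library totals, 23.3% of the 305 genes higher in replicate 1 only rose in surface fish, against 4.84% of all genes, and 57.3% of the 3196 lower genes fell, against 41.5% of all genes.

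**Figure D5:**
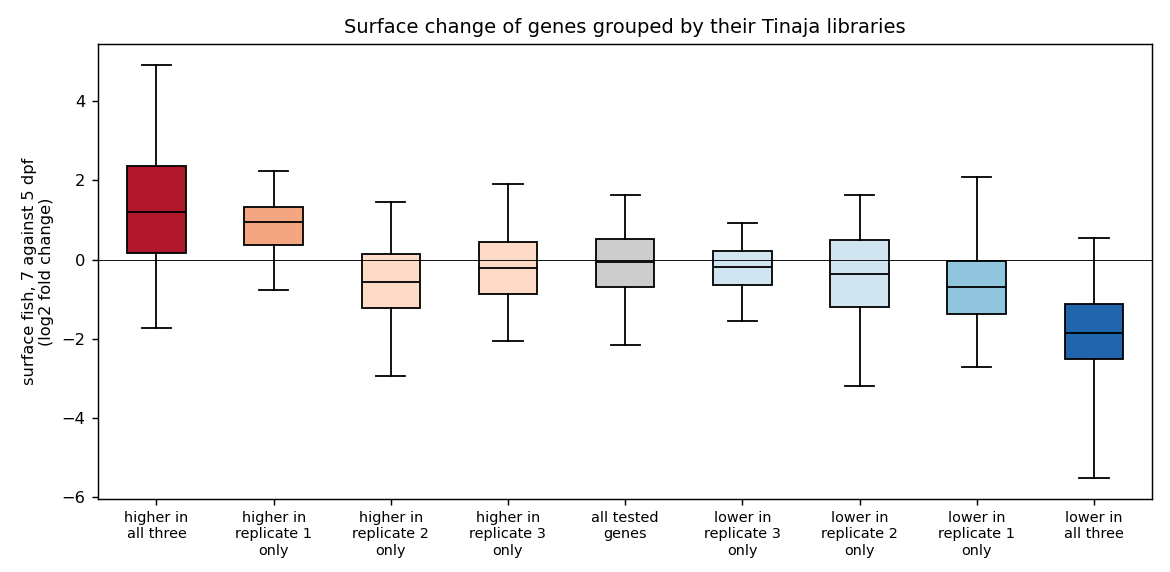
Log2 fold change between 7 and 5 dpf in surface fish for genes grouped by their behaviour in the Tinaja 7 dpf libraries. Boxes span the quartiles with the median, and whiskers the 5th to 95th percentile; all tested genes of each class are used, and the medians are 1.20 and 0.94 for genes higher in all 3 libraries or in replicate 1 only, -0.57 and -0.20 for those higher in replicate 2 or 3 only, and -1.84 for those lower in all 3.

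A like order was seen when genes were chosen in surface fish and read in each Tinaja library. The 2468 genes that rose in surface fish had a median difference from 5 dpf of 0.74 (log2) in replicate 1 of Tinaja 7 dpf, 0.15 in replicate 2 and 0.26 in replicate 3. The 2521 genes that fell had medians of -0.84, -0.31 and -0.33. On the TMM scale all 3 libraries thus moved in the direction of surface fish, and replicate 1 moved furthest. The sets were not read on library totals. There the median of all tested genes was -0.57, 0.11 and 0.14 in replicates 1, 2 and 3, so the order of the replicates may depend on the scale. A 2-fold rise was reached by 36.4%, 7.90% and 13.05% of the rising set, and a 2-fold fall by 43.6%, 22.5% and 29.3% of the falling set. Over all tested genes 11.2%, 7.74% and 10.1% were 2-fold higher and 17.4%, 6.97% and 11.5% were 2-fold lower.

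The Tinaja 5 dpf libraries differed along the same genes. Each set against the other two, replicates 1, 2 and 3 of 5 dpf had medians of 0.12, 0.16 and -0.28 for the genes rising in surface fish, and of -0.15, -0.03 and 0.19 for those falling. Replicate 3, the 5 dpf library with the high share of unaligned reads, thus lay opposite to the other two on the TMM scale. In such a comparison the deviations of each gene cancel out, so some library must lie opposite to the others. The sets were not read on library totals, and the TMM factors of these libraries were 0.931, 0.866 and 1.24.

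A term for Tinaja libraries with at least 6% unaligned reads was added after the data were seen. With it, the age comparison rests on libraries of a like kind, and 1741 genes changed, 905 upward (5.16%) and 836 downward (4.77%). Of these 1039 were among the 1223 with the same direction, including 132 of the 135 genes rising and 438 of the 496 falling in all 3 libraries. Of the genes of replicate 1 only, 496 of 1249 now rose (39.7%) and 140 of 1397 fell (10.0%), where 92 and 38 had done so without the term. Replicate 1 is the only 7 dpf library of its kind, so with the term it weighs more on the age effect than in the main fit. Genes chosen because replicate 1 departed are then more readily called, and these larger counts are no further test. The term itself passed for 2074 genes. In a further alternative each 7 dpf library was set against 5 dpf libraries of its own kind, and 1225 genes were higher and 1450 lower in replicate 1 only, of which 39.5% rose and 23.2% fell in surface fish. The shares rising in surface fish were then 7.78% for replicate 2 and 17.0% for replicate 3.

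The lean of replicate 1 to the surface change was much smaller in another fit. When the fit held a covariate for the percentage of reads outside genes, 1521 and not 4989 genes changed in surface fish, where 2.91% of all tested genes rose and 5.76% fell. Of the genes higher in replicate 1, 2 or 3 only, 5.28%, 1.182% and 7.81% then rose in surface fish, so that replicate 3 and not replicate 1 had the highest share. Of those lower in replicate 1, 2 or 3 only, 3.15%, 8.50% and 24.7% fell, and replicate 1 lay under the share of all genes. Of the tested genes changed in all 3 libraries 31.3% of 230 rose and 51.4% of 621 fell. In surface fish this covariate differed with age, at 21.7% ± 0.924 of reads in the 7 dpf and 30.7% ± 3.59 in the 5 dpf libraries (SD, n = 3 each), and there the covariate and age cannot be told apart.

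A test of the difference between the age effects of Tinaja and surface fish passed for few genes, which does not show that the other effects were equal. The test cannot set a difference between the populations apart from their different timing of yolk loss. It passed for 8 of 17540 genes (0.0456%; edgeR, adjusted p under 0.1), of which 6 had a more positive and 2 a more negative effect in Tinaja, and 2769 genes had an unadjusted p under 0.05. Of the 8 genes 3 were higher and 1 lower in all 3 Tinaja libraries, and none was of replicate 1 only. Without replicate 1 of 7 dpf the number was 1484, and without Tinaja 5 dpf replicate 3 it was 555. It was 13 without surface 7 dpf replicate 3 and 4 or 5 without surface 5 dpf replicates 1, 2 or 3, surface 7 dpf replicates 1 or 2, or Tinaja 5 dpf replicate 1. DESeq2 gave 835. The number was thus highest when either of 2 Tinaja libraries was left out, or in DESeq2.

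Genes changed in all 3 Tinaja libraries were also compared between the populations at each age. Over all tested genes 10.6% were higher and 7.71% lower in Tinaja than in surface fish at 7 dpf, and 8.77% and 7.22% at 5 dpf (edgeR, adjusted p under 0.1). At 7 dpf 23 of the 135 rising genes were higher (17.0%) and 11 lower (8.15%) in Tinaja, against 15 higher (11.1%) and 24 lower (17.8%) at 5 dpf. Of the 496 falling genes 46 were higher (9.27%) and 51 lower (10.3%) in Tinaja at 7 dpf, against 112 higher (22.6%) and 29 lower (5.85%) at 5 dpf. The genes had been chosen with the same Tinaja libraries, so these shares are a description. Of 541 genes at least 4-fold higher in Tinaja at 5 dpf, 163, 110 and 119 lay within 2-fold of the surface 7 dpf mean in replicates 1, 2 and 3 of Tinaja 7 dpf. Of 590 genes at least 4-fold lower, 176, 271 and 282 did. By this count replicate 1 was nearest to surface fish for the genes higher in Tinaja, and farthest for those lower in Tinaja.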

How the data were processed

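The file the authors deposited holds raw counts, as whole numbers, of 27420 genes in 12 libraries. Its 4 summary rows (unaligned, outside genes, in overlapping genes or at several positions) were left out of library sizes and tests. Single reads of 75 bp from stranded libraries of polyadenylated RNA had been aligned by the authors with STAR 2.7.3a to astMex_2.0 with Ensembl annotation, with RSEM 1.3.0 named as the quantification tool, although the table looks like STAR output. Its strand setting was not given in the sources used here, so reads of overlapping genes on opposite strands may have been misplaced, and reads with several positions were set aside, which lowers near-identical paralogues.

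The deposited counts were filtered with filterByExpr, scaled by TMM and tested in edgeR 4.0.16 (R 4.3.3) by quasi-likelihood, with robust dispersions. All 12 libraries entered with a mean per group and 8 residual degrees of freedom. The fit that gave a library its own mean had 7, and that of single libraries against 5 dpf had 6. Genes with a Benjamini-Hochberg adjusted p under 0.1 were called changed, the study's false discovery rate. Standard errors came from the F statistics. Classes used log2 CPM with a prior count of 2. Scripts were tested on simulated data. The depth of 10.6 to 23.6 M reads per library sets the precision of low genes, and the limit of 3 counts covers counting error only.

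The members, classes and tests were chosen with earlier results of these data known. None of the identifiers matched the RefSeq table of AstMex3_surface (0 of 27420), so the pathway lists and cell type markers planned were not analysed here, nor were sequences and positions. Genes given by identifier are the 2 rising and 2 falling with the widest gap between the ages among genes of all 3 libraries that passed, changed at least 2-fold, averaged at least 3 log2 CPM and passed without replicate 1 of 7 dpf. For replicate 1 against replicates 2 and 3 they are the 2 higher and 2 lower genes with the largest difference among those of replicate 1 only, at the same level. Alternatives were DESeq2 1.42.0, limma-voom (limma 3.58.1), other scalings, filters, thresholds and samples, the replicate number as a block, a covariate, thinned counts and, added after the data were seen, the kind of library. No library was a copy of another of its group, with a chi-square of 21.2 to 112 per gene in replicate pairs.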

Additional observations from a re-analysis of the deposited data

Results flagged for a closer look

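The age effects of Tinaja and surface fish differed by a test of the difference itself for 8 genes (edgeR, adjusted p under 0.1). ENSAMXG00000034409, given above with its level in every library, was among them. Its log2 fold change between 7 and 5 dpf was 4.45 in Tinaja and 1.63 in surface fish, a difference of 2.83 (SE 0.39, edgeR adjusted p = 0.0422).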

How the results depend on the processing

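The direction of each of the 8 genes given by identifier was kept under all alternatives. Leaving out single libraries gave 204 to 1503 changed genes, 34 to 470 rising and 170 to 1033 falling. Of these 26 to 213 rose and 156 to 692 fell in all Tinaja 7 dpf libraries that remained. In replicate 1 only 0 to 78 rose and 2 to 32 fell, and 1108 to 1397 tested genes were higher and 1208 to 1643 lower there. Classes of a single replicate cannot be formed without a Tinaja 7 dpf library. For surface fish the range was 3062 to 5898, for the difference of age effects 4 to 1484, and for replicate 1 against replicates 2 and 3 it was 84 to 873. The cause of the changes below was not tested.

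On library totals 258 genes rose, 32 rose and 92 fell in replicate 1 only, 305 and 3196 tested genes were higher and lower there, 8128 genes changed in surface fish and 17 differed between replicate 1 and the others. DESeq2 gave 1992 changed genes, 743 rising and 1249 falling, 217 and 90 of replicate 1 only, and 835 for the difference of age effects. Without a filter these last were 49, 16 and 15, and 213 genes set replicate 1 apart (104 in limma-voom). A fit of the 6 Tinaja libraries, which cannot give the surface results, had 362 genes, 61 rising and 301 falling, with 54 and 281 in all 3 libraries, 1 and 0 in replicate 1 only, and 23 for replicate 1 against the others. With reads outside genes as a covariate 662 rose, 227 of them in replicate 1 only, 1521 changed in surface fish and 0 differed in age effect. At an adjusted p under 0.05 there were 534 changed genes, 131 rising and 403 falling, 75 rising in all 3 libraries, 15 and 5 of replicate 1 only, 67 of replicate 1 against the others, 3302 in surface fish and 5 for the difference. Class limits of 1.5-fold gave 290 rising and 773 falling genes in all 3 libraries and 9 and 3 in replicate 1 only. Limits of 3-fold gave 37 and 176, with 68 falling and 502 higher and 840 lower tested genes in replicate 1 only. With the term for library kind 905 rose, 496 rose and 140 fell in replicate 1 only and 74 differed in age effect, and against 5 dpf libraries of the same kind 154 fell in replicate 1 only.

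Same-numbered 7 and 5 dpf replicates deviated from their group means with correlations of 0.177, 0.039 and 0.410, so the numbers were not taken as pairs. A fit with the number as a replicate block called 1494 genes, and 26 for the difference of age effects. Not every replicate correlated best with its own number.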
